A study of Mus musculus with 27 samples.

Results

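Interleukin-1 (IL-1) and tumour necrosis factor (TNF) cytokines were followed with their receptors in CD11b+ cells sorted from hippocampus (HC) and prefrontal cortex (PFC) of C57BJ6 mice, the strain name given in the labels for C57BL/6. The set of 10 genes is a list of names, drawn up with earlier results of these data known: the IL-1 ligands Il1a and Il1b, the IL-1 antagonist Il1rn, the IL-1 receptor chains Il1r1 and Il1rap, the cytokine Tnf, its receptors Tnfrsf1a and Tnfrsf1b, the TNF-family ligand Tnfsf9, and Il6. All 10 were found among the 53412 gene identifiers of the minocycline experiment and among the 55421 of the enrichment experiment, and all 10 passed the filter on low counts in both. CD11b, encoded by Itgam, is an integrin chain of myeloid cells, among them microglia, neutrophils, monocytes and macrophages.

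The minocycline experiment compared cells of mice under chronic unpredictable mild stress given minocycline (CUMS_M, 3 HC and 3 PFC libraries), mice under the same stress alone (CUMS, 3 HC and 2 PFC libraries) and naive controls (NAIVE, 2 HC and 2 PFC libraries). The enrichment experiment compared environmental enrichment (EE) with vehicle (VEH), 3 libraries each in HC and in PFC, and every mouse of that experiment, VEH included, had the stress protocol. Chronic unpredictable mild stress is a rodent depression model built from changing mild stressors, and minocycline is a tetracycline antibiotic used to dampen microglial activation. Sex, age, drug dose, time of sampling and pooling of animals are not given in the labels used here. Nothing in the labels says that replicates came from separate animals, so each p-value measures the spread between these libraries, which may be technical.

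IL-1 alpha and IL-1 beta signal through a receptor made of Il1r1 and the accessory chain Il1rap, and the antagonist encoded by Il1rn occupies that receptor without signalling. TNF is made as a membrane protein, is shed by the protease ADAM17, and acts through the death-domain receptor TNFR1 (Tnfrsf1a) and through TNFR2 (Tnfrsf1b), which lacks a death domain. Both routes activate NF-kappaB, whose targets include the cytokine genes themselves and feedback inhibitors such as Nfkbia and Tnfaip3. In brain, microglia are a main source of these cytokines, and both are known for acting on synapses and for sickness behaviour.

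The minocycline libraries held between 7.87 M and 15.3 M counts each, and the enrichment libraries between 19.5 M and 23.9 M. The 12 microglial markers were all detected and summed to between 37446 and 60433 CPM (counts scaled by library size) in each library. The 12 neutrophil markers summed to between 162 and 4617 CPM. The 12 lymphocyte markers summed to between 20.6 and 46.3 CPM, with the T cell gene Cd3e at or below 0.844 CPM. Markers of the choroid plexus, the tissue beside the hippocampus that makes cerebrospinal fluid, followed the region label in the minocycline experiment, with 747 to 2570 summed CPM in HC and 9.53 to 40.6 in PFC. PFC CUMS_M replicate 3 was the exception there, at 778 CPM. In the enrichment experiment they did not follow it: PFC EE replicates 2 and 3 had 1503 and 299 CPM and PFC VEH replicates 2 and 3 had 875 and 927, while HC VEH replicates 1 and 2 had 6.22 and 6.16. These 6 libraries went against the regional label by this measure. The Il1a, Il1b and Tnf results of the enrichment experiment are given with and without them. HC VEH replicate 3, at 308 CPM, was counted as following its label. Its level was close to that of PFC EE replicate 3, so the split between these libraries is uncertain.

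Compared per length, as CPM divided by kilobases of exon (FPKM), the TNF receptors stood far above their ligand and the IL-1 receptor chains far below theirs. Tnfrsf1b had a median of 177 FPKM over the 15 libraries of the minocycline experiment and Tnfrsf1a 140 FPKM. The IL-1 ligand Il1a followed with a median level of 31.7 FPKM, Tnf with 17.3 FPKM and Il1b with 16.3 FPKM. Tnfsf9, the ligand of the co-stimulatory receptor 4-1BB, was at 3.0 FPKM and Il6 at 1.45 FPKM. The accessory chain Il1rap was at 1.13 FPKM, the antagonist Il1rn at 0.473 FPKM and Il1r1, the signalling IL-1 receptor, at 0.302 FPKM. Neighbours in this order overlapped in their library ranges in every case except between Tnfrsf1a, at 117 FPKM or more, and Il1a, at 55.5 FPKM or less, and between Il1b, at 5.94 FPKM or more, and Tnfsf9, at 4.81 FPKM or less. In the enrichment experiment the medians were 149 FPKM for Tnfrsf1b, 107 for Tnfrsf1a, 49.2 for Il1a, 31.8 for Il1b and 26.5 for Tnf, and the remaining 5 genes lay between 0.382 and 3.15 FPKM. The tables were normalised separately, so levels are not compared between them.

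**Figure D1:**
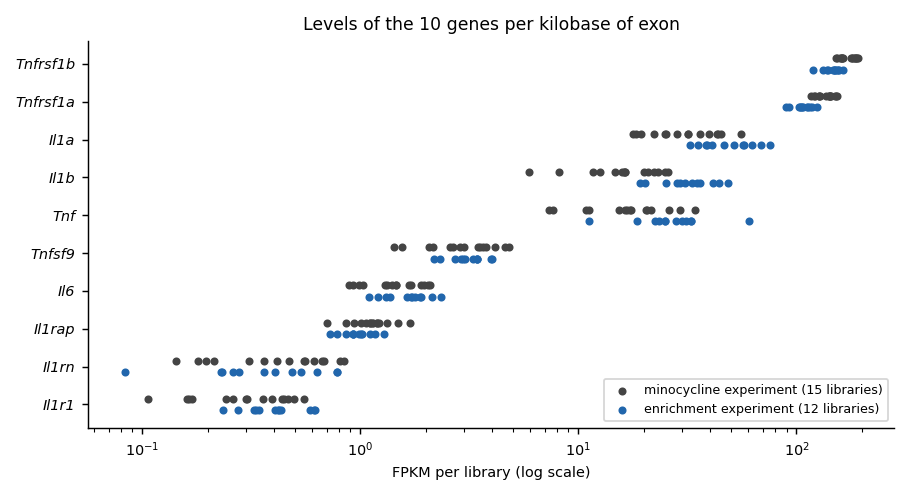
Levels of the 10 genes in FPKM on a log scale, 1 point per library, dark points for the 15 libraries of the minocycline experiment and blue points for the 12 of the enrichment experiment. Tnfrsf1b and Tnfrsf1a lie at the top, Il1a, Il1b and Tnf in the middle, and Il1rn and Il1r1 below 1 FPKM.

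The TNF receptors varied least across libraries. Across the 15 libraries of the minocycline experiment the highest CPM of Tnfrsf1b was 1.26 times its lowest and that of Tnfrsf1a 1.31 times, against 4.65 times for Tnf and 4.34 times for Il1b. In the enrichment experiment these ratios were 1.38 for Tnfrsf1b, 1.39 for Tnfrsf1a, 5.45 for Tnf and 2.55 for Il1b. For Il1a they were 3.12 in the minocycline experiment and 2.33 in the enrichment experiment, for Il1rap 2.40 and 1.77, and for Il1r1 5.20 and 2.64. Il1rn varied 5.90-fold and 9.45-fold, on 9 to 92 counts per library, and the part of counting error in its spread was not tested. Il1r1 likewise rested on 7 to 100 counts and Il6 on 19 to 129, which limits what any comparison of these 3 genes can detect.

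The genes lie at separate loci of GRCm38 in the GENCODE M21 annotation, apart from the neighbours Il1a (chr2:129299610-129309972, minus strand) and Il1b (chr2:129364570-129371139, minus strand). Tnf is at chr17:35199381-35202007 on the minus strand, and Il6 at chr5:30013114-30019981 on the plus strand. No exon base of the 10 genes is shared with another gene on the same strand. On the opposite strand Gm11110 covers 14.9% of the exon bases of Tnfsf9, Gm14023 covers 11.2% of those of Il1a, Gm20319 covers 4.86% of those of Il1rap and Il1bos covers 1.31% of those of Il1b. The library kit kept the strand, but the strand setting of the counting is not given in the sources used here, so without it reads from these overlaps cannot be told apart.

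The 100 bases before the start of transcription are shown for the inducible cytokine genes Il1a, Il1b, Tnf and Il6, classical targets of NF-kappaB. They are RefSeq promoter sequences on GRCm38.p6, written 5′ to 3′ on the strand of the gene, and capitals mark matches to the motifs searched on both strands.
Il1a: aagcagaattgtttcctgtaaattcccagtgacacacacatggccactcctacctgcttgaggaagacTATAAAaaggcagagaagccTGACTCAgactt
Il1b: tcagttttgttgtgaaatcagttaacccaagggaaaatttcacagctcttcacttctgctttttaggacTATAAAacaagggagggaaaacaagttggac
Tnf: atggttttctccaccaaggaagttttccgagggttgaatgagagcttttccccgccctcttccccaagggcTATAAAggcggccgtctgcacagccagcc
Il6: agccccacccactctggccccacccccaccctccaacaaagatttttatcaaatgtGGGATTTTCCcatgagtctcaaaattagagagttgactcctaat

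These windows are chr2:129309973-129310072 for Il1a, chr2:129371140-129371239 for Il1b and chr17:35202008-35202107 for Tnf, all minus strand, and chr5:30013014-30013113, plus strand, for Il6. A TATA box (TATAAA) begins 32, 31 and 29 bases before the start of Il1a, Il1b and Tnf. It occurs on either strand in 5.56% of the 32851 promoter windows of the same length. Il1a also holds the AP-1 motif TGANTCA 12 bases before its start, present in 2.73% of windows, and Il6 a kappaB motif, searched with any base at the fifth position, 44 bases before, present in 0.125% of windows. These are letter matches in short windows, of the 9 members with a RefSeq promoter entry, and the windows of the receptors and of Il1rn held none of these motifs.

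The question of the minocycline experiment was what the drug did to these cells under stress. In HC, Il1b, Tnf and Tnfsf9 were lower in every CUMS_M library than in any CUMS library, while the groups overlapped for both TNF receptors and both IL-1 receptor chains. None of the 10 genes passed the adjusted test, against 0.00686% of all tested genes (1 of 14579) called in that comparison. Il1b, the secreted IL-1 ligand that is cut to its active form by caspase-1, had 11.3, 15.6 and 24.1 CPM in HC CUMS_M, against 42.1, 31.1 and 31.3 CPM in HC CUMS. Means were 17.0 ± 6.48 CPM in HC CUMS_M and 34.8 ± 6.33 CPM in HC CUMS (SD, n = 3 each). The groups did not overlap, and the log2 fold change was -1.04 ± 0.24 (standard error of the edgeR fit), with an unadjusted p of 0.000616 and a Benjamini-Hochberg adjusted p of 0.582 over all tested genes by the edgeR quasi-likelihood test. Whether Il1b was called depended on the test, on the filter and on the libraries kept. The DESeq2 Wald test gave Il1b an adjusted p of 0.0147 and the edgeR fit without a filter on low counts 3.13e-08. The edgeR fit without HC CUMS_M replicate 3 gave 0.0276. Il1b did not pass with DESeq2 size factors, the replicate number as a block, the compared groups fitted alone or any other library left out. Over all genes the Wald test called 10 and the unfiltered fit 31, against 1. The log2 fold change of Il1b was -1.05 without the filter.

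Tnf had 18.3, 17.8 and 12.5 CPM in HC CUMS_M, against 47.8, 42.5 and 25.2 CPM in HC CUMS. All 3 HC CUMS_M libraries lay below the lowest HC CUMS library, which was HC CUMS replicate 3. Tnf had a log2 fold change of -1.25 ± 0.33, with adjusted p-values of 0.725 by the edgeR quasi-likelihood test and 0.0147 by the DESeq2 Wald test. Tnfsf9 had 2.00, 3.68 and 3.45 CPM in HC CUMS_M, against 5.33, 4.86 and 6.20 CPM in HC CUMS, a log2 fold change of -0.85 ± 0.38 (edgeR adjusted p = 1). Il1b, Tnf and Tnfsf9 were the 3 of 10 members whose groups did not overlap, all lower in HC CUMS_M, where 4.27% of all tested genes were lower without overlap and 6.04% higher.

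Il1a, the IL-1 ligand that is active without processing, had 49.2, 44.1 and 38.3 CPM in HC CUMS_M, against 71.2, 62.7 and 36.3 CPM in HC CUMS. The lowest library was one of HC CUMS, so the groups overlapped, with a log2 fold change of -0.37 ± 0.21. The receptors were the best measured genes: Tnfrsf1b averaged 708 ± 21.1 CPM in HC CUMS_M and 634 ± 73.9 CPM in HC CUMS (SD, n = 3 each), a log2 fold change of 0.16 with a 95% interval of -0.03 to 0.35. Tnfrsf1a averaged 368 ± 1.59 CPM in HC CUMS_M and 347 ± 43.3 CPM in HC CUMS (SD, n = 3 each), a log2 fold change of 0.08 with an interval of -0.11 to 0.27. Neither of the TNF receptors passed the edgeR test, and these intervals leave out any fold change as large as that of Tnf. For Il6, Il1rn and Il1r1 the intervals reached from -0.81 to 0.79, from -0.74 to 1.68 and from -1.21 to 1.01, so changes of either direction within those bounds were not excluded.

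**Figure D2:**
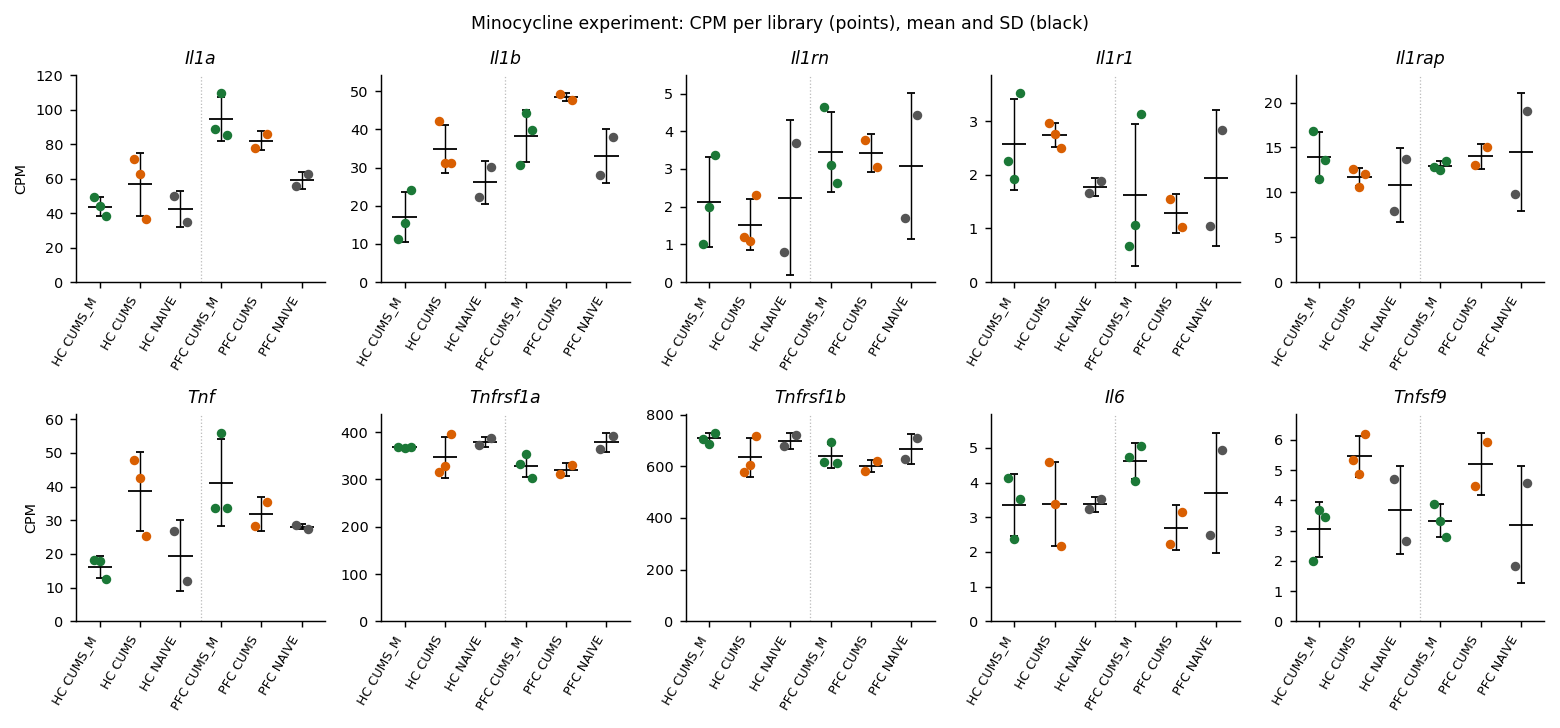
CPM of the 10 genes in the minocycline experiment, 1 point per library, with the group mean (horizontal bar) and SD (vertical bar), HC groups left of the dotted line and PFC groups right of it. In HC the CUMS_M points of Il1b (11.3 to 24.1 CPM) and Tnf (12.5 to 18.3 CPM) lie below all CUMS points, and Tnfrsf1a and Tnfrsf1b are nearly level across groups.

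Other transcripts moved with these genes in HC. The summed level of 23 immediate early genes, the transcripts such as Fos and Egr1 that cells switch on within minutes of a stimulus or of tissue dissociation, was 8486 to 10564 CPM in HC CUMS_M and 12267 to 24475 CPM in HC CUMS, with no overlap, and all 23 were detected in every library. The summed level of 12 neutrophil markers was 321 to 2338 CPM in HC CUMS_M and 162 to 451 CPM in HC CUMS, with overlap, and within HC CUMS_M it was 321, 994 and 2338 CPM in replicates 1, 2 and 3, whose Il1b was 11.3, 15.6 and 24.1 CPM. Microglial markers summed to 54469 to 60433 CPM in HC CUMS_M and 47374 to 55276 CPM in HC CUMS. The part of these lists in the cytokine values was not tested. Fewer cells of a type and less RNA per cell cannot be told apart in these bulk samples.

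Among the other 45 tested genes of the IL-1, TNF and IL-6 pathways in HC CUMS_M against CUMS, 0 were called, 28 had a log2 fold change below 0 and 17 above it, with a median of -0.06 (0.01 over all tested genes). At an unadjusted p under 0.05 there were 7 of these 45 genes and 584 (4.01%) of all 14579. By smallest p the first was Nfkbia, the NF-kappaB inhibitor that NF-kappaB itself induces, at 147 ± 14.0 CPM in HC CUMS_M and 310 ± 79.8 CPM in HC CUMS (SD, n = 3 each). Its log2 fold change was -1.07 ± 0.21 and its edgeR adjusted p 0.555. The other was Il6st, the shared signal chain of IL-6 receptors, at 795 ± 101 CPM in HC CUMS_M and 608 ± 29.8 CPM in HC CUMS, with a log2 fold change of 0.39 ± 0.09 and an adjusted p of 0.582.

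In PFC, Tnf and Il1a were not lower in CUMS_M than in CUMS on average. None of the 10 genes was called in PFC CUMS_M against CUMS, where 0.0206% of all tested genes were. Tnf had 33.8, 56.0 and 33.6 CPM in PFC CUMS_M, against 28.3 and 35.4 CPM in PFC CUMS, and the groups overlapped (log2 fold change 0.36 ± 0.36). Il1a had 89.0, 109.6 and 85.6 CPM in PFC CUMS_M, against 78.1 and 85.9 CPM in PFC CUMS, also with overlap (0.21 ± 0.23). Il1b had 30.8, 44.3 and 39.8 CPM in PFC CUMS_M, against 49.1 and 47.8 CPM in PFC CUMS, lower in all 3 CUMS_M libraries with a log2 fold change of -0.34 ± 0.26 (edgeR adjusted p = 1).

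Tnfsf9 was also lower without overlap in PFC CUMS_M, at 2.79 to 3.87 CPM, than in PFC CUMS, at 4.47 and 5.94 CPM. Il6 was higher without overlap, at 4.05 to 5.06 CPM in PFC CUMS_M and 2.23 and 3.15 CPM in PFC CUMS, with a log2 fold change of 0.78 ± 0.44. With groups of 3 and 2 libraries, 8.98% of all tested genes were higher and 12% lower without overlap, so 1 and 2 of 10 members is close to the background. Of the pathway list 0 of 45 genes were called and 28 lay above 0. The 2 of smallest p were Il33, an IL-1 family alarmin, with a log2 fold change of -1.53 ± 0.62 (edgeR adjusted p = 0.747), and Cflar, which restrains caspase-8, with 0.27 ± 0.13 (adjusted p = 0.863). Astrocyte markers summed to 305 to 490 CPM in PFC CUMS_M and 738 to 802 CPM in PFC CUMS, oligodendrocyte markers to 269 to 412 CPM in PFC CUMS_M and 727 to 780 CPM in PFC CUMS, and endothelial and mural markers to 90.1 to 120.3 CPM in PFC CUMS_M and 195 to 243 CPM in PFC CUMS. All 3 lists were lower without overlap, and their part in these values was not tested.

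The effect of CUMS_M was compared between regions directly. For Tnf the HC effect minus the PFC effect was -1.61 ± 0.49 on the log2 scale, with an unadjusted p of 0.00697 and an edgeR adjusted p of 0.999. For Il1b it was -0.69 ± 0.35 and for Il1a -0.58 ± 0.32, and no member passed the adjusted test, which called 0.00686% of all tested genes.

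Stress alone was compared with naive mice, and no member passed in either region. In HC CUMS against NAIVE, where 0% of tested genes were called (418, 2.87%, had an unadjusted p under 0.05, and the DESeq2 Wald test called 1), Tnf had 47.8, 42.5 and 25.2 CPM in HC CUMS, against 26.9 and 12.04 CPM in HC NAIVE. The lowest HC CUMS library was below the higher HC NAIVE library, so the groups overlapped, and the log2 fold change was 0.98 ± 0.37 (edgeR adjusted p = 1). It was 0.53 without HC NAIVE replicate 2 and 1.69 without HC NAIVE replicate 1. Il1b had 42.1, 31.1 and 31.3 CPM in HC CUMS, against 22.2 and 30.1 CPM in HC NAIVE, higher without overlap by 0.41 ± 0.26. Il1a was higher by 0.42 ± 0.24 in HC CUMS than in HC NAIVE, with overlap. Il1b, Il1r1 and Tnfsf9 were the 3 members that did not overlap, all higher in HC CUMS, as were 10.3% of all tested genes. Neutrophil markers summed to 162 to 451 CPM in HC CUMS and 715 to 1529 CPM in HC NAIVE, astrocyte markers to 474 to 541 CPM in HC CUMS and 300 to 368 CPM in HC NAIVE, and oligodendrocyte markers to 719 to 895 CPM in HC CUMS and 518 to 528 CPM in HC NAIVE. None of these 3 lists overlapped between HC CUMS and HC NAIVE, and their part in the cytokine values was not tested.

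In PFC CUMS against NAIVE 0.816% of all tested genes were called and 0 of the 10 members. Il1b had 49.1 and 47.8 CPM in PFC CUMS, against 28.1 and 38.1 CPM in PFC NAIVE, a log2 fold change of 0.55 ± 0.29 (edgeR adjusted p = 0.423). Il1a had 78.1 and 85.9 CPM in PFC CUMS, against 55.7 and 62.6 CPM in PFC NAIVE, a log2 fold change of 0.47 ± 0.26 (adjusted p = 0.456). Tnf had 28.3 and 35.4 CPM in PFC CUMS, against 28.6 and 27.5 CPM in PFC NAIVE, with overlap and a log2 fold change of 0.18 ± 0.40, which was 0.016 without PFC CUMS replicate 2. Il1a and Il1b were higher without overlap, and both TNF receptors were lower without overlap, Tnfrsf1a at 310 and 330 CPM in PFC CUMS and 363 and 393 CPM in PFC NAIVE. Its log2 fold change was -0.24 ± 0.11 (edgeR adjusted p = 0.351). With 2 libraries a group, 24.2% of all tested genes were higher and 19.4% lower without overlap. Neutrophil markers summed to 1686 and 2249 CPM in PFC CUMS and to 3249 and 4617 CPM in PFC NAIVE, and immediate early genes to 17413 and 20613 CPM in PFC CUMS and 14257 and 17448 CPM in PFC NAIVE. Microglial markers were lower without overlap, at 48148 and 51483 CPM in PFC CUMS and 55641 and 59537 CPM in PFC NAIVE. Border macrophage markers, at 661 and 844 CPM in PFC CUMS and 469 and 518 CPM in PFC NAIVE, and astrocyte markers, at 738 and 802 CPM in PFC CUMS and 233 and 268 CPM in PFC NAIVE, were higher without overlap. Their part in these values was not tested.

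The pathway list held 1 gene that fell in PFC CUMS against NAIVE, Il6st, at 490 and 580 CPM in PFC CUMS and 781 and 794 CPM in PFC NAIVE. Its log2 fold change was -0.56 ± 0.11 and its edgeR adjusted p 0.0185. The call was lost with the replicate number as a block, when the compared groups were fitted alone, and without PFC CUMS replicate 1, PFC CUMS replicate 2 or PFC NAIVE replicate 1. The remaining 44 genes of that list were not called. In HC CUMS against NAIVE 0 of 45 were called, and the 2 of smallest p were Nfkbia, 0.82 ± 0.23, and Il6st, -0.29 ± 0.10, both with an edgeR adjusted p of 1. The difference of the stress effect between regions was within -0.70 to 1.22 for the 10 members and 0 were called, where 0% of tested genes were called.

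Stressed mice given minocycline were also set against naive mice. In PFC CUMS_M against NAIVE Il1a had 89.0, 109.6 and 85.6 CPM in PFC CUMS_M, against 55.7 and 62.6 CPM in PFC NAIVE, a log2 fold change of 0.68 ± 0.24 (edgeR adjusted p = 0.260, where 0.0892% of all tested genes were called). Without the filter on low counts its adjusted p was 0.00148. Immediate early genes summed to 18604 to 28210 CPM in PFC CUMS_M and 14257 to 17448 CPM in PFC NAIVE, without overlap. Astrocyte markers were also higher without overlap, at 305 to 490 CPM in PFC CUMS_M and 233 to 268 CPM in PFC NAIVE. Microglial markers were lower without overlap, at 48014 to 55483 CPM in PFC CUMS_M and 55641 to 59537 CPM in PFC NAIVE. The part of these lists in the Il1a value was not tested. In HC CUMS_M against NAIVE, Il1b was at 17.0 ± 6.48 CPM in HC CUMS_M (n = 3) and 26.1 ± 5.59 CPM in HC NAIVE (n = 2), a log2 fold change of -0.62 ± 0.27 with overlapping groups. Tnf was at 16.2 ± 3.25 CPM in HC CUMS_M and 19.5 ± 10.5 CPM in HC NAIVE (-0.27 ± 0.37). No member was called in either comparison, nor any of the 45 tested pathway genes (in HC 0% of all tested genes were called, 339 (2.33%) had an unadjusted p under 0.05 and the DESeq2 Wald test called 1). In PFC the pathway genes of smallest p were Il6st, with -0.47 ± 0.10 (edgeR adjusted p = 0.0732), and Tradd, the adaptor of TNFR1, with 0.74 ± 0.20 (adjusted p = 0.155). These comparisons share the CUMS_M or NAIVE libraries with those above and are not independent of them.

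**Figure D3:**
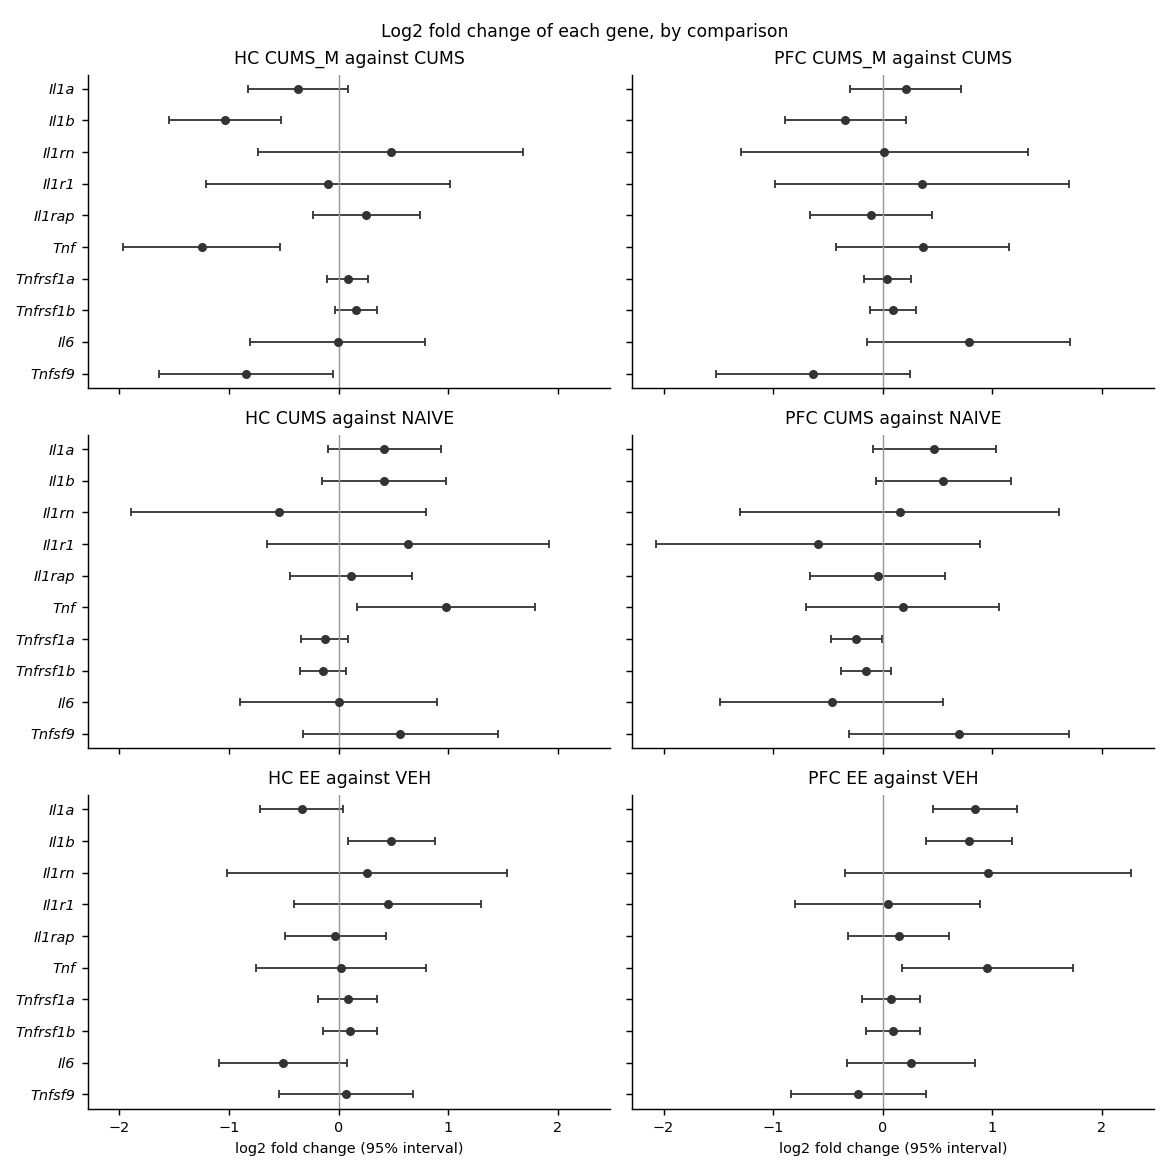
Log2 fold change of each gene with its 95% interval in 6 comparisons, HC in the left column and PFC in the right. The intervals of Il1b, Tnf and Tnfsf9 lie below 0 in HC CUMS_M against CUMS, and that of Tnf lies above 0 in HC CUMS against NAIVE. Those of Il1a, Il1b and Tnf lie above 0 in PFC EE against VEH, as does that of Il1b in HC EE against VEH. The narrow intervals of Tnfrsf1a and Tnfrsf1b include 0 except that of Tnfrsf1a in PFC CUMS against NAIVE (-0.47 to -0.01).

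The comparison of regions was the only one in which members passed the adjusted edgeR test with all libraries. In the minocycline experiment, averaged over treatments with equal weight, Il1a and Il1b were lower in HC than in PFC. They were 2 of the 10 members, where 5.1% of all tested genes were called, 1.67% lower and 3.43% higher. Il1a had a lowest, median and highest value of 35.1, 46.6 and 71.2 CPM in the 8 HC libraries, against 55.7, 85.6 and 109.6 CPM in the 7 PFC libraries. It was lower in HC within each treatment without overlap. Il1a was at 38.3 to 49.2 CPM in HC CUMS_M and 85.6 to 109.6 in PFC CUMS_M. In CUMS it was at 36.3 to 71.2 in HC and 78.1 to 85.9 in PFC. In NAIVE it was at 35.1 to 49.8 in HC and 55.7 to 62.6 in PFC. The share of all genes without overlap between regions within a treatment was not counted. In PFC CUMS against NAIVE, with 2 libraries a group as in NAIVE here, 24.2% of all tested genes were higher and 19.4% lower without overlap. The log2 fold change of Il1a between regions was -0.71 ± 0.14 (edgeR adjusted p = 0.0106). Il1a stayed called without any 1 of the 15 libraries (highest adjusted p 0.0396).

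Il1b had a lowest, median and highest value of 11.3, 27.1 and 42.1 CPM in the HC libraries, against 28.1, 39.8 and 49.1 CPM in the PFC libraries. Within CUMS_M and within CUMS the regions did not overlap, and the share of all genes without overlap there was not counted. In NAIVE the higher HC library, at 30.1 CPM, lay above the lower PFC library, at 28.1 CPM. The log2 fold change was -0.66 ± 0.15 (edgeR adjusted p = 0.0220). This call was lost when any 1 of 4 libraries was left out: Il1b had an adjusted p of 0.0802 without PFC CUMS replicate 1, 0.0550 without PFC CUMS replicate 2, 0.0611 without PFC NAIVE replicate 2 and 0.0709 without HC NAIVE replicate 1. Without PFC CUMS_M replicate 3, the library with choroid plexus transcripts, the adjusted p was 0.0279 for Il1b and 0.00714 for Il1a.

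Tnf was lower in HC on average, with a lowest, median and highest value of 12.04, 21.8 and 47.8 CPM in HC and 27.5, 33.6 and 56.0 CPM in PFC, but did not pass (log2 fold change -0.53 ± 0.21, edgeR adjusted p = 0.196). The DESeq2 Wald test gave Tnf an adjusted p of 0.0422 there, and the edgeR fit without HC NAIVE replicate 1 gave 0.0469. Il1rn was at 0.787 to 3.70 CPM in HC and 1.70 to 4.64 CPM in PFC (-0.78 ± 0.37, adjusted p = 0.261). Tnfrsf1a and Tnfrsf1b went the other way by 0.09 ± 0.06 and 0.10 ± 0.06, and neither passed. Immediate early genes had a lowest, median and highest sum of 8486, 11415 and 24475 CPM in HC and 14257, 18604 and 28210 CPM in PFC, and neutrophil markers one of 162, 583 and 2338 CPM in HC and 549, 2249 and 4617 CPM in PFC. Both lists were lower in HC on the median, as the cytokines were, and so were monocyte and neuron markers. The other marker lists were higher in HC. Border macrophage markers had medians of 748 CPM in HC and 518 in PFC, and choroid plexus markers 1363 and 33.6. Medians were 623 and 412 CPM for oligodendrocyte markers and 231 and 117 for endothelial and mural markers. HC libraries held 11.8 M to 15.3 M counts and PFC libraries 7.87 M to 12.4 M. The part of these lists and of depth in the regional difference was not tested.

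Of the 45 tested pathway genes 3 were called lower in HC than in PFC and 0 higher. Of all tested genes 5.1% were called, 1.67% lower and 3.43% higher. Tab2, which couples TRAF6 to the kinase TAK1, had a log2 fold change of -0.24 ± 0.05 (edgeR adjusted p = 0.0106). Nfkbia had -0.59 ± 0.13 (adjusted p = 0.0259). Nfkbiz, an inducible nuclear cofactor of NF-kappaB, had -0.87 ± 0.21 (adjusted p = 0.0463). The number called ran from 0 without PFC CUMS replicate 1 to 6 without PFC CUMS_M replicate 3, and was 1 without PFC CUMS replicate 2, HC CUMS_M replicate 1 or HC NAIVE replicate 2. The median log2 fold change over the list was -0.04, against 0.02 over all tested genes.

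The enrichment experiment did not show the regional difference under the labels as given. Il1a had a lowest, median and highest value of 75.6, 107 and 124 CPM in the 6 HC libraries, against 63.8, 84.1 and 149 CPM in the 6 PFC libraries, and Il1b one of 36.4, 60.7 and 78.7 CPM in HC and 38.7, 60.5 and 92.8 CPM in PFC. The log2 fold changes were 0.11 ± 0.13 for Il1a and -0.06 ± 0.13 for Il1b, and the edgeR test called 0 members and 0% of all tested genes, with 331 of 15921 (2.08%) at an unadjusted p under 0.05 and 0 by the DESeq2 Wald test. Without the 6 libraries whose choroid plexus transcripts went against the label, 2051 genes were called between the regions and still 0 of the 10 members, with log2 fold changes of 0.12 for Il1a, -0.24 for Il1b and -0.83 for Tnf (edgeR adjusted p = 0.0768). That fit kept 1 library each of PFC EE, PFC VEH and HC VEH beside 3 of HC EE, so the lone libraries were assumed to vary as HC EE did.

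Enrichment under stress was compared with vehicle under stress. In PFC, Il1a, Il1b and Tnf were higher in every EE library than in any VEH library, and the groups overlapped for all 4 receptor chains. None of the 10 members passed the edgeR test, which called 0% of all tested genes (677, 4.25%, had an unadjusted p under 0.05, and the DESeq2 Wald test called 17). Il1a had 135, 91.9 and 149 CPM in PFC EE, against 69.5, 76.3 and 63.8 CPM in PFC VEH. Its means were 125 ± 29.6 CPM in PFC EE and 69.9 ± 6.27 CPM in PFC VEH (SD, n = 3 each), with a log2 fold change of 0.84 ± 0.18, an unadjusted p of 0.000343 and an edgeR adjusted p of 0.550. The DESeq2 Wald test gave Il1a an adjusted p of 0.0245, and the edgeR fit without a filter on low counts 4.41e-05. With DESeq2 size factors, the replicate number as a block, the compared groups fitted alone or 1 library left out, no member passed.

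Il1b had 92.8, 83.7 and 66.8 CPM in PFC EE, against 38.7, 54.2 and 48.3 CPM in PFC VEH. All PFC EE libraries were above the highest PFC VEH library, with a log2 fold change of 0.79 ± 0.18 (edgeR adjusted p = 0.802, and 0.00251 without the filter on low counts). Tnf had 99.7, 53.6 and 51.0 CPM in PFC EE, against 49.1, 38.4 and 18.3 CPM in PFC VEH, a log2 fold change of 0.95 ± 0.35 (edgeR adjusted p = 0.986). PFC EE replicate 1 was far above the others for Tnf, and without 1 library the log2 fold change of Tnf ran from 0.57 to 1.27. These were 3 of 10 members higher without overlap and 0 lower, where 4.8% of all tested genes were higher and 4.39% lower.

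Tnfrsf1a averaged 289 ± 29.5 CPM in PFC EE and 274 ± 33.3 CPM in PFC VEH (SD, n = 3 each), and Tnfrsf1b 587 ± 32.5 CPM in PFC EE and 551 ± 39.2 CPM in PFC VEH. Their log2 fold changes were 0.08 with a 95% interval of -0.19 to 0.34 and 0.09 with an interval of -0.16 to 0.34. Il1rn had 4.33, 2.69 and 1.28 CPM in PFC EE, against 1.54, 1.44 and 1.29 CPM in PFC VEH, with overlap and a log2 fold change of 0.96 ± 0.61. Immediate early genes summed to 25729 to 39915 CPM in PFC EE and 15149 to 25883 CPM in PFC VEH, and neutrophil markers to 406 to 3115 CPM in PFC EE and 421 to 1150 CPM in PFC VEH. The highest value of both lists was in PFC EE replicate 1, the library highest in Il1b and Tnf. A further PFC EE library had nearly the same immediate early sum, 39347 CPM, although Tnf was far lower in the other PFC EE libraries than in replicate 1. The part of both lists in the cytokine values was not tested.

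**Figure D4:**
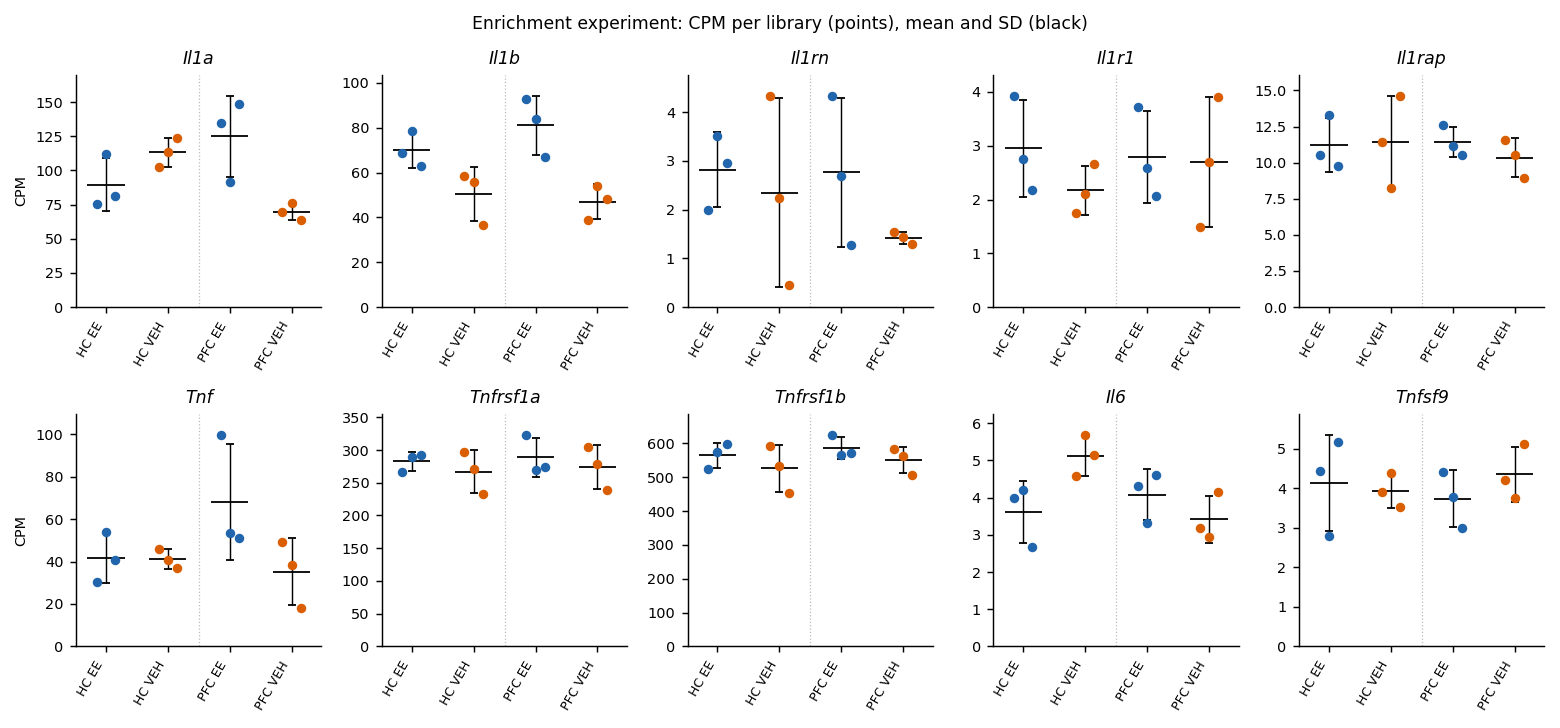
CPM of the 10 genes in the enrichment experiment, 1 point per library, with the group mean (horizontal bar) and SD (vertical bar), EE left of VEH in each region. Il1b lies higher in EE (63.0 to 92.8 CPM) than in VEH (36.4 to 58.5 CPM) in both regions, and the EE points of Il1a lie above all VEH points in PFC, while in HC 2 of 3 lie below all VEH points.

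Among pathway genes in PFC EE against VEH, 0 of 44 were called, 29 had a log2 fold change above 0, and 11 were higher and 1 lower without overlap, where 4.8% of all tested genes were higher and 4.39% lower. Socs3, the feedback inhibitor of IL-6 family signalling, was at 851 ± 185 CPM in PFC EE and 429 ± 149 CPM in PFC VEH (SD, n = 3 each), a log2 fold change of 0.99 ± 0.26. Tnfaip3, which encodes the NF-kappaB inhibitor A20, was at 304 ± 78.9 CPM in PFC EE and 174 ± 39.8 CPM in PFC VEH, a log2 fold change of 0.80 ± 0.22. Both had an edgeR adjusted p of 0.986.

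In HC, Il1b was again higher with enrichment and Il1a and Tnf were not. The edgeR test called 0% of all tested genes and 0 members (1652 genes, 10.4%, had an unadjusted p under 0.05, and the DESeq2 Wald test called 441). Il1b had 68.5, 78.7 and 63.0 CPM in HC EE, against 58.5, 55.8 and 36.4 CPM in HC VEH. The groups did not overlap, and the log2 fold change was 0.48 ± 0.18 (edgeR adjusted p = 0.353). Il6 had 3.98, 4.21 and 2.66 CPM in HC EE, against 4.57, 5.68 and 5.15 CPM in HC VEH, lower without overlap by a log2 fold change of -0.50 ± 0.27 (adjusted p = 0.565). Without overlap, 9.66% of all tested genes were higher and 6.36% lower, so 1 member in each direction was near the background.

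Il1a had 75.6, 112 and 81.2 CPM in HC EE, against 102, 114 and 124 CPM in HC VEH, with overlap and a log2 fold change of -0.34 ± 0.18. Tnf averaged 41.8 ± 11.7 CPM in HC EE and 41.2 ± 4.55 CPM in HC VEH (SD, n = 3 each), a log2 fold change of 0.02 with an interval of -0.75 to 0.80. Markers of border macrophages, the myeloid cells of meninges and perivascular spaces, summed to 639 to 877 CPM in HC EE and 375 to 479 CPM in HC VEH, monocyte markers to 481 to 605 CPM in HC EE and 316 to 512 CPM in HC VEH, and neutrophil markers to 533 to 1226 CPM in HC EE and 269 to 2225 CPM in HC VEH. Choroid plexus markers summed to 762 to 2692 CPM in HC EE and 6.16 to 308 CPM in HC VEH, without overlap. The part of all these lists in the Il1b values was not tested.

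In the pathway list 0 of 44 genes were called in HC EE against VEH. By smallest p these were Il33, at 7.72 ± 3.20 CPM in HC EE and 2.63 ± 1.06 CPM in HC VEH (SD, n = 3 each; log2 fold change 1.55 ± 0.43, edgeR adjusted p = 0.166), and Il18, an IL-1 family cytokine processed by caspase-1, at 17.4 ± 3.40 CPM in HC EE and 25.2 ± 3.40 CPM in HC VEH (-0.53 ± 0.18, adjusted p = 0.264). Astrocyte markers summed to 669 to 919 CPM in HC EE and 445 to 563 CPM in HC VEH, and oligodendrocyte markers to 500.01 to 898 CPM in HC EE and 249 to 325 CPM in HC VEH, both without overlap, and their part in these values was not tested.

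The effect of enrichment was then compared between the regions, and of the 10 genes Il1a had the largest difference. The HC effect minus the PFC effect was -1.18 ± 0.25 for Il1a on the log2 scale, with an unadjusted p of 0.000356 and an edgeR adjusted p of 0.998, where 0% of all tested genes were called, 670 (4.21%) had an unadjusted p under 0.05 and the DESeq2 Wald test called 0. Without the filter on low counts the adjusted p of Il1a was 0.000176. The same difference was -0.31 ± 0.26 for Il1b and -0.93 ± 0.50 for Tnf. In the pathway list 35 of 44 genes had a negative difference, with a median of -0.13 (0.00 over all tested genes), and 0 were called. Without the 6 libraries the difference was -1.40 for Il1a (edgeR adjusted p = 0.0330), -0.30 for Il1b and -0.82 for Tnf, in a fit that called 472 genes and 1 of the 10 members.

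Because the choroid plexus transcripts did not follow the region labels here, enrichment was also averaged over both regions, a comparison added after the data were seen. Il1b had a lowest, median and highest value of 63.0, 73.6 and 92.8 CPM in the 6 EE libraries, against 36.4, 51.2 and 58.5 CPM in the 6 VEH libraries. Every EE library was above every VEH library, which held for 0.59% of all tested genes in that direction, and Il1b was the only one of the 10 members for which it did. The log2 fold change was 0.63 ± 0.13 with an edgeR adjusted p of 0.1002, so it did not pass, where 0.107% of all tested genes were called. The adjusted p of Il1b ran from 0.0494 without PFC EE replicate 3 to 0.229 over the libraries left out 1 at a time, was 0.106 in a fit with no region term, and was 0.00252 with the DESeq2 Wald test and 1.41e-05 without a filter on low counts. Border macrophage markers summed to 426 to 877 CPM in EE and 375 to 563 CPM in VEH, and immediate early genes to 22417 to 39915 CPM in EE and 15149 to 31065 CPM in VEH. Both lists overlapped between EE and VEH, and their part in the Il1b values was not tested.

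Leaving out the 6 libraries whose choroid plexus transcripts went against the label made the Il1b values larger in both regions. Il1b then had a log2 fold change of 1.26 in PFC EE against VEH (edgeR adjusted p = 0.00216) and of 0.96 in HC EE against VEH (adjusted p = 0.00108). Il1a had 0.95 in PFC (adjusted p = 0.0654) and -0.45 in HC (adjusted p = 0.197), and Tnf 1.02 in PFC (adjusted p = 0.252) and 0.20 in HC (adjusted p = 0.758). Over both regions Il1b had 1.11 (adjusted p = 8.75e-06), Il1a 0.25 (adjusted p = 0.398) and Tnf 0.61 (adjusted p = 0.237). Il1rn, whose product blocks the IL-1 receptor, reached 2.62 in HC EE against VEH (adjusted p = 0.0223), against a value of 0.26 with all libraries. In HC this leaves HC VEH replicate 3 alone, at 36.4 CPM of Il1b and 0.459 CPM of Il1rn, the lowest HC VEH library for both genes. Its choroid plexus sum, 308 CPM, was close to that of PFC EE replicate 3, which was left out. That fit called 334 genes in PFC and 1012 in HC, against 0 in both with all libraries, so calls became common over all genes. These calls rest on 1 library per group in all groups but HC EE and take their spread from HC EE alone.

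Across libraries the 3 genes most like Tnf were not the 3 most like Il1b. For Tnf the 3 genes outside the set with the highest Pearson correlation of log2 CPM in both experiments, of 14216 genes ranked, were Nfkbiz, with r = 0.94 over the 15 libraries of the minocycline experiment and 0.93 over the 12 of the enrichment experiment, Marcksl1, a MARCKS-like actin regulator (0.93 and 0.93), and the immediate early transcription factor Egr1 (0.91 and 0.91). Spearman's rho for Nfkbiz was 0.92 and 0.85, and r without the 2 farthest libraries 0.90 and 0.72. Within HC of the minocycline experiment the r of Tnf with Nfkbiz was 0.97, and within PFC 0.87.

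For Il1b they were the neutrophil-attracting chemokine Cxcl2 (r = 0.80 over the minocycline libraries and 0.81 over the enrichment libraries), the kinase Pim1 (0.80 and 0.85) and Ptgs2, which encodes cyclooxygenase-2 (0.83 and 0.74). Spearman's rho for Cxcl2 was 0.84 and 0.78, and r without the 2 farthest libraries 0.73 and 0.56. Within PFC of the minocycline experiment the r of Il1b was 0.94 with Cxcl2, 0.30 with Pim1 and 0.70 with Ptgs2. Within HC there it was 0.71, 0.76 and 0.98 in that order. In the enrichment experiment these were 0.78, 0.87 and 0.90 within PFC and 0.89, 0.84 and 0.55 within HC. Among the members themselves, Tnf had an r of 0.82 and 0.63 with Il1a and of 0.59 and 0.55 with Il1b, and without the 2 farthest libraries the enrichment r was 0.31 with each. With Tnfrsf1b it was -0.64 in the minocycline experiment and 0.66 in the enrichment experiment, and with Tnfrsf1a -0.56 and 0.76, so the sign differed between the experiments. Within the minocycline experiment the r of Tnf with Tnfrsf1b was -0.90 within HC and 0.36 within PFC, and with Tnfrsf1a -0.74 within HC and -0.05 within PFC. These are descriptions over libraries that share groups and treatments, and no test was made of them.

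**Figure D5:**
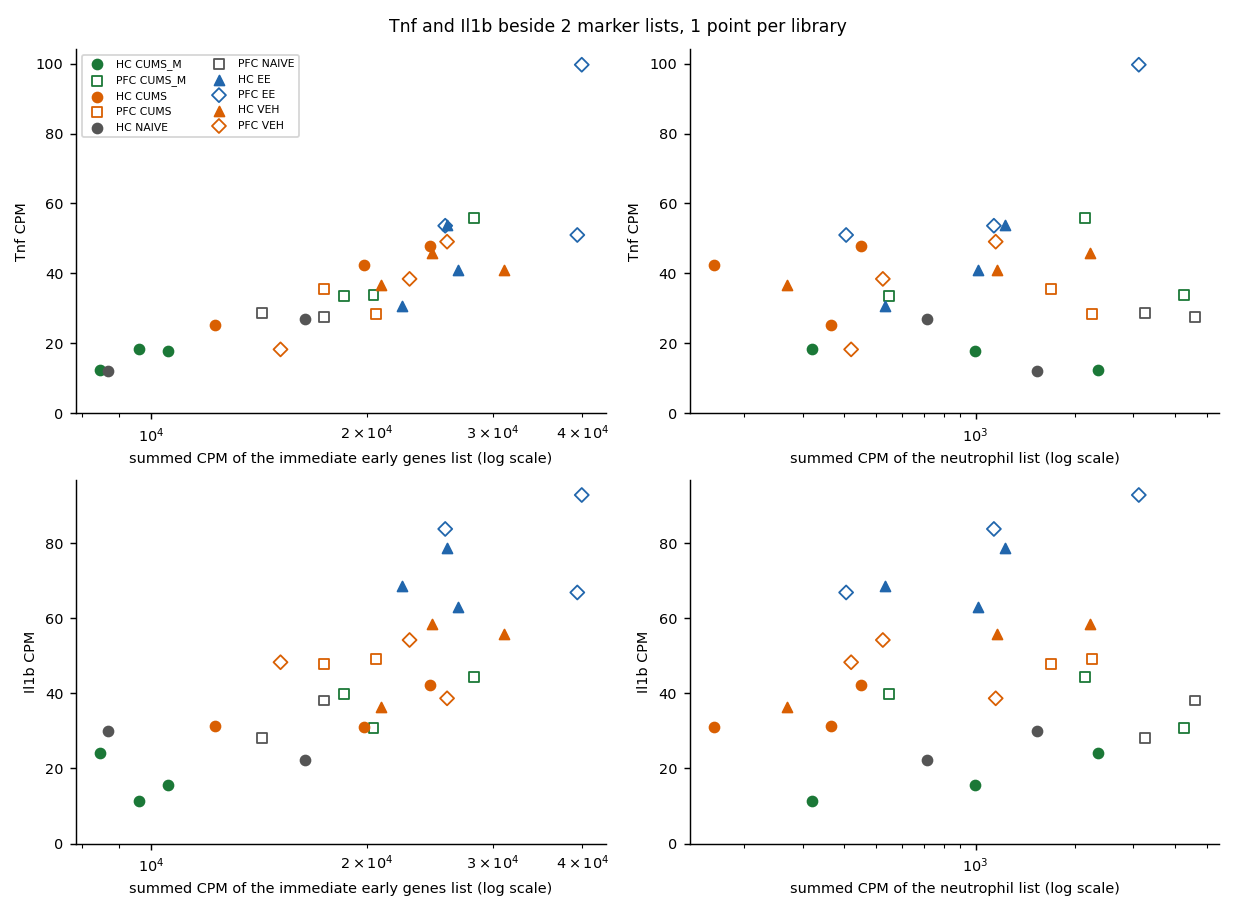
Tnf (top) and Il1b (bottom) in CPM against the summed CPM of 23 immediate early genes (left) and of 12 neutrophil markers (right), log scale on the horizontal axes, 1 point per library, filled for HC and open for PFC. HC CUMS_M libraries, at 8486 to 10564 CPM of immediate early genes, hold low Tnf (12.5 to 18.3 CPM), and PFC EE replicate 1 has the highest Tnf (99.7 CPM) and Il1b (92.8 CPM).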

How the data were processed

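Raw gene counts were deposited, with 1 table from the authors for each experiment. Per the submitters' processing notes, Trimmomatic 0.36, STAR 2.6.1b, Picard 2.17.1, featureCounts 1.5.3 and DESeq2 1.24.0 were used with mm10/GRCm38. The annotation release, strand setting and duplicate handling are not given in the sources used here. From the counts, genes were kept by filterByExpr (minimum count 10, minimum total 15; 14579 and 15921 genes), scaled by TMM and tested with the edgeR 4.0.16 quasi-likelihood test (R 4.3.3, 1 mean per group over all libraries of a table, robust), with Benjamini-Hochberg adjustment over all tested genes and calls at an adjusted p under 0.05. CPM use TMM-scaled library sizes, and FPKM divide them by GENCODE M21 exon length. The log2 fold changes of groups averaged over treatments or regions use equal weights.

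The 10 members, the pathway list of 46 genes (Lta was not tested in either table, Tnfrsf9 not in the enrichment table) and the marker lists were chosen with earlier results of these data known. Named pathway genes are up to 6 called genes per comparison, or else the 2 of smallest p. Likeness used log2 CPM with a prior count of 2. Alternatives were DESeq2 1.42.0 (size factors, Wald test), no low-count filter, the replicate number as a block, a fit of just the compared groups, and omitting libraries 1 at a time. In PFC EE and VEH, libraries with equal numbers deviated together (r = 0.359, 0.198 and 0.208), a hint from the values that no label states, and they were treated as possible pairs. In no other comparison did every pair exceed 0.1. The fit was tested on simulated data.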

Additional observations from a re-analysis of the deposited data

How the results depend on the processing

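Of 720 results under other settings, 674 kept their direction and side of the threshold, 29 changed sign and 17 passed where they had not. Leaving out 1 library at a time gave 1130, of which 1011 did so, 112 changed sign, 3 newly passed and 4 no longer passed. The limits are those of groups of 2 or 3 libraries and of low counts for Il1rn, Il1r1, Il6 and Tnfsf9. The cause of the changes was not tested.

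Without the filter on low counts 1 member was called in HC CUMS_M against CUMS, 1 in PFC CUMS_M against NAIVE, 2 in PFC EE against VEH, 1 in the EE effect of HC minus PFC and 1 in EE against VEH over both regions. The DESeq2 Wald test called 2 members in HC CUMS_M against CUMS, 1 in PFC EE against VEH and 1 in EE against VEH over both regions, and 3 in HC against PFC of the minocycline experiment. The fit with the replicate number as a block, a pairing the labels do not give, called 0 members in PFC EE against VEH and changed no call on a member. Over the libraries left out 1 at a time, members called ran from 0 to 1 in HC CUMS_M against CUMS, from 1 to 2 in HC against PFC of the minocycline experiment and from 0 to 1 in EE against VEH over both regions. Without the 6 libraries whose choroid plexus transcripts went against their label, an alternative added after the data were seen, 1 member was called in PFC EE against VEH, 2 in HC EE against VEH, 1 in the EE effect and 2 over both regions, where 334, 1012, 472 and 687 of all genes were called.

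Pathway genes called without the filter were 2 in PFC CUMS against NAIVE, 2 in PFC CUMS_M against NAIVE, 1 in HC CUMS_M against CUMS, 1 in HC CUMS against NAIVE, 5 in HC against PFC of the minocycline experiment, and 1 each in the CUMS_M effect, HC EE against VEH and EE over both regions. DESeq2 called 8 of them in HC against PFC of the minocycline experiment and 1 each in PFC CUMS_M against NAIVE, HC CUMS_M against CUMS, the CUMS_M effect, HC EE against VEH and EE over both regions. With the replicate block 0 were called in PFC CUMS against NAIVE and 1 in HC CUMS_M against CUMS, and with only the groups compared 0 in PFC CUMS against NAIVE. Without the 6 libraries they were 2 in PFC EE against VEH, 4 in HC EE against VEH, 12 in HC against PFC of the enrichment experiment, 1 in the EE effect and 4 over both regions. With libraries left out 1 at a time they ran from 0 to 2 in PFC CUMS against NAIVE and in PFC CUMS_M against NAIVE, from 0 to 1 in HC CUMS_M against CUMS and from 0 to 6 in HC against PFC of the minocycline experiment.

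Over all genes, those called without the filter and by DESeq2 were 402 and 348 in PFC CUMS against NAIVE (119 by the edgeR fit), 170 and 73 in PFC CUMS_M against CUMS (3), 268 and 138 in PFC CUMS_M against NAIVE (13), 31 and 10 in HC CUMS_M against CUMS (1), 1191 and 1173 in HC against PFC of the minocycline experiment (744), 278 and 441 in HC EE against VEH (0), 19 and 17 in PFC EE against VEH (0) and 219 and 285 in EE over both regions (17). The replicate block gave 63, 0, 0, 5, 428, 73, 0 and 0 genes in these 8 comparisons. Without the filter and by DESeq2 they were also 17 and 1 in HC CUMS against NAIVE (0), 8 and 1 in HC CUMS_M against NAIVE (0), 57 and 19 in the CUMS effect (0), 37 and 2 in the CUMS_M effect (1) and, without the filter, 8 in the EE effect (0). With the compared groups fitted alone they were 26 in PFC CUMS against NAIVE, 68 in PFC CUMS_M against CUMS, 0 in PFC CUMS_M against NAIVE, 223 in HC EE against VEH and 12 in the CUMS effect.

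With the replicate block the log2 fold change turned to -0.63 for Il1r1 in PFC CUMS_M against CUMS, 0.0575 for Il6 in HC CUMS against NAIVE, 0.0190 for Il6 in HC CUMS_M against CUMS, 0.0059 for Tnf, -0.0382 for Tnfrsf1b and 0.0765 for Il6 in HC CUMS_M against NAIVE, and 0.0029 for Il6 in HC against PFC of the minocycline experiment. It turned to 0.11 for Il1a and -0.0523 for Tnfrsf1b in the CUMS effect, 0.50 for Il1r1 and -0.0072 for Tnfrsf1a in the CUMS_M effect, -0.0078 for Tnf in HC EE against VEH and -0.0091 for Tnfsf9 in HC against PFC of the enrichment experiment. For Il6 in HC CUMS against NAIVE it was 0.0179 with DESeq2 size factors, 0.0142 without the filter, 0.0176 with the DESeq2 Wald test and 0.0062 with only the groups compared. For Il6 in HC CUMS_M against NAIVE it was 0.0044 and 0.0054, and for Tnfsf9 in HC against PFC of the enrichment experiment -0.00045 and -0.0010, with the size factors and the Wald test. Without the 6 libraries it was 0.0666 for Tnfsf9 in PFC EE against VEH, -1.17 for Il1rn, 0.25 for Il1r1 and -0.17 for Tnfsf9 in HC against PFC, 1.13 for Il1rn and -1.15 for Il1r1 in the EE effect, and -0.13 for Il1rap and 0.16 for Tnfsf9 over both regions.

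Where leaving out 1 library changed a sign, the log2 fold change is given as its lowest to highest value. In PFC CUMS against NAIVE it ran from -0.36 to 1.002 for Il1rn, -1.12 to 0.29 for Il1r1, -0.43 to 0.51 for Il1rap and -0.86 to 0.11 for Il6. In PFC CUMS_M against CUMS it ran from -0.26 to 0.18 for Il1rn, -0.56 to 0.73 for Il1r1 and -0.0112 to 0.10 for Tnfrsf1a. In PFC CUMS_M against NAIVE it ran from -0.36 to 1.01 for Il1rn, -1.16 to 0.65 for Il1r1, -0.55 to 0.40 for Il1rap, -0.14 to 0.0262 for Tnfrsf1b, -0.0878 to 0.89 for Il6 and -0.45 to 0.85 for Tnfsf9. In HC CUMS against NAIVE it ran from -1.26 to 0.96 for Il1rn, -0.22 to 0.58 for Il1rap and -0.26 to 0.24 for Il6. In HC CUMS_M against CUMS it ran from -0.0398 to 0.90 for Il1rn, -0.39 to 0.0739 for Il1r1 and -0.25 to 0.26 for Il6. In HC CUMS_M against NAIVE it ran from -0.17 to 0.33 for Il1a, -0.80 to 1.42 for Il1rn, -0.72 to 0.43 for Tnf, -0.0236 to 0.0747 for Tnfrsf1b, -0.19 to 0.18 for Il6 and -0.63 to 0.19 for Tnfsf9. In HC against PFC of the minocycline experiment it ran from -0.23 to 0.10 for Il6 and -0.12 to 0.32 for Tnfsf9. In the CUMS effect of HC minus PFC it ran from -0.28 to 0.23 for Il1a, -0.35 to 0.11 for Il1b, -1.53 to 0.80 for Il1rn, -0.38 to 0.62 for Il1rap, -0.0859 to 0.10 for Tnfrsf1b, -0.10 to 0.87 for Il6 and -0.92 to 0.38 for Tnfsf9. In the CUMS_M effect of HC minus PFC it ran from -0.0442 to 0.89 for Il1rn, -0.83 to 0.46 for Il1r1, -0.027 to 0.15 for Tnfrsf1a and -0.43 to 0.0263 for Tnfsf9. In PFC EE against VEH it ran from -0.24 to 0.42 for Il1r1 and -0.0165 to 0.16 for Tnfrsf1a. In HC EE against VEH it ran from -0.22 to 1.03 for Il1rn, -0.22 to 0.19 for Il1rap, -0.20 to 0.22 for Tnf, -0.00853 to 0.16 for Tnfrsf1a and -0.14 to 0.29 for Tnfsf9. In HC against PFC of the enrichment experiment it ran from -0.12 to 0.0356 for Il1b, -0.0111 to 0.63 for Il1rn, -0.26 to 0.0657 for Il1r1, -0.0463 to 0.15 for Il1rap, -0.0805 to 0.013 for Tnfrsf1a and -0.10 to 0.11 for Tnfsf9. In the EE effect of HC minus PFC it ran from -1.18 to 0.0774 for Il1rn, -0.36 to 0.041 for Il1rap, -0.0919 to 0.10 for Tnfrsf1a and -0.0848 to 0.10 for Tnfrsf1b. In EE against VEH over both regions it ran from -0.0359 to 0.17 for Il1rap and -0.18 to 0.0311 for Tnfsf9.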
